A study of Arabidopsis thaliana with 8 samples.

Results

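Tau and phi glutathione S-transferases are the large plant-specific classes of the enzymes that join the tripeptide glutathione to electrophilic compounds, among them herbicides, oxidised lipids and intermediates of defence metabolism. The conjugates are taken into the vacuole by ABC transporters and broken down there. Many of the genes lie side by side as tandem copies, and many are switched on by chemicals, pathogens, jasmonates, salicylic acid, dehydration or cold, so that their transcripts serve as markers of stress in seedlings.

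The genes were taken from a list of 41 Arabidopsis loci, *GSTU1* to *GSTU28* of the tau class and *GSTF2* to *GSTF14* of the phi class. Members were all non-control probes whose accession is a RefSeq mRNA of one of these loci, which gave 57 of the 43603 distinct probes on the array and covered 40 of the 41 loci, of 25383 annotated genes with a probe. The tau class had 35 probes for 27 loci and the phi class had 22 probes for 13 loci. *GSTU21* (AT1G78360) matched no probe. No genotype had the *GSTF13* probe well above background on its 2 arrays, so it was not tested, which left 56 probes and 39 genes. No member spot was marked as an outlier or as saturated. A gene with several probes, as 11 genes had, was read by its brightest probe unless another is named. How far the probe of a tandem copy also binds transcripts of its neighbours was not tested.

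RNA of 12-day-old seedlings, kept at 4 °C for 1 day before harvest, was labelled with Cy3 and hybridised to one-colour Agilent arrays, 2 for each of 4 genotypes, which sets each of a pair of *hda6* mutants beside its *ros1-1* parent. C24 is the wild type that carries the *RD29A::LUC* and *35S::NPTII* transgenes. *ros1-1*, which lacks a working DNA demethylase and silences both transgenes, has the same background and is the reference here. The double mutants *ros1-1 hda6-9* and *ros1-1 hda6-10*, named by the *hda6* allele below, were recovered from a T-DNA-mutagenised *ros1-1* population, carry both transgenes and the *ros1-1* mutation, and are 1 line per allele. HDA6 is a histone deacetylase. In *hda6-9* a T-DNA near the stop codon replaces the end of the protein, and in *hda6-10* a small deletion in exon 1 truncates it. The labels call the 2 arrays of a genotype biological replicates.

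Signal stood well above background at 77.2% to 80.6% of an array's non-control spots. The *HDA6* transcript, read by its brighter probe, was 3.00-fold lower in *hda6-10* than in *ros1-1* and 2.08-fold higher in *hda6-9* (limma, adjusted p = 0.00014 and 0.00068). The green shoot markers *RBCS1A*, *LHCB1.1*, *LHCB1.3*, *LHCA1* and *PSBO1* were well above background on all 8 arrays, as seedlings should show, and none was called in any comparison. Slide 1 held both *hda6-10* arrays and *ros1-1* replicate 1, slide 2 held *hda6-9* replicate 1 and *ros1-1* replicate 2, slide 3 held *hda6-9* replicate 2, and slide 4 held both C24 arrays, so that C24 and its slide cannot be told apart. Every value below is the log2 signal relative to the 75th percentile of its own array, given for replicate 1 and then replicate 2. It can be compared between arrays for 1 probe but not between probes. Calls came from limma's fit to all 8 arrays and needed both a change above 2-fold and a p under 0.05 after Benjamini-Hochberg adjustment over the 35391 tested probes. The comparisons of *hda6-10*, *hda6-9* and C24 with *ros1-1* share the *ros1-1* arrays. In these bulk samples, fewer cells of a type and less RNA per cell cannot be told apart.

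In *hda6-10* against *ros1-1*, 4 of 56 member probes were called higher and 4 lower, from *GSTU17*, *GSTF5* and *GSTF12* on the higher side and *GSTU4*, *GSTU10*, *GSTU15* and *GSTF6* on the lower side. Over all tested probes 5.01% were called higher and 1.35% lower, against 7.14% of the member probes in each direction. The 4 higher probes were 2 of *GSTU17*, that of *GSTF5* and the dimmer of *GSTF12*, whose brightest probe lay lower. *GSTF5* was tested through *hda6-10* alone, where it was highest, so the higher share is a description. By brightest probe, 2 of 39 genes were called higher and 3 lower. In *hda6-9* against *ros1-1*, 2 of 56 member probes were called higher, those of *GSTU8* and *GSTF5*, and 3 lower, those of *GSTU4*, *GSTU14* and *GSTU15*. The shares over all tested probes were 4.29% higher and 1.37% lower, against 3.57% and 5.36% of the member probes. Each member probe counts for over 1% of the set, and several probes read 1 gene, so that these shares rest on a handful of genes.

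**Figure D1:**
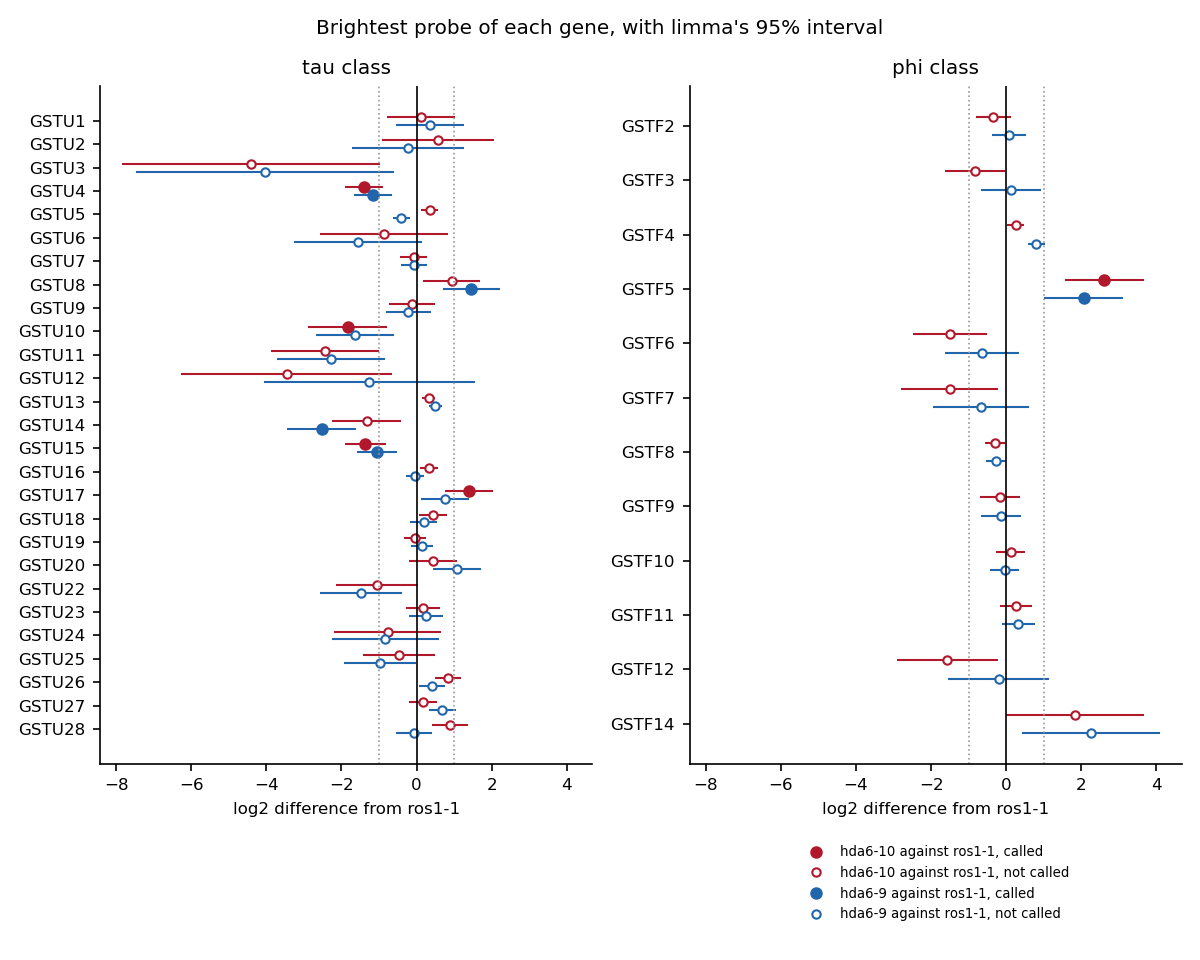
Log2 difference from *ros1-1* (x axis) of each gene's brightest probe, for *hda6-10* in red and *hda6-9* in blue, tau genes on the left and phi genes on the right. Points are limma estimates, lines their 95% intervals, filled points are called and dotted lines mark a 2-fold change; *GSTU4*, *GSTU15* and *GSTF5* are filled for both alleles.

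*GSTU4*, *GSTU15* and *GSTF5* were called in the same direction in both alleles, *GSTU4* and *GSTU15* lower and *GSTF5* higher. *GSTU4* (AT2G29460), a member of the largest tandem cluster, lay at 1.67 and 1.38 in C24, 1.88 and 1.88 in *ros1-1*, 1.01 and 0.43 in *hda6-9*, and 0.49 and 0.48 in *hda6-10*. All 4 arrays of the alleles lay below all 4 arrays of C24 and *ros1-1*. *GSTU4* was 2.64-fold lower in *hda6-10* (log2 difference -1.40, SE 0.20, adjusted p = 0.011) and 2.23-fold lower in *hda6-9* (-1.16, SE 0.20, adjusted p = 0.021). The *hda6-10* call was lost without any 1 of the 4 arrays compared (adjusted p = 0.052 to 0.063). The *hda6-9* call was lost without *hda6-9* replicate 2 (-0.87, adjusted p = 0.046) and without either *ros1-1* array (adjusted p = 0.094 and 0.097), and on slide 2 alone the difference was -0.87.

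*GSTU15* (AT1G59670) had signals of -3.15 and -2.86 in C24, -2.79 and -2.59 in *ros1-1*, -3.45 and -4.04 in *hda6-9*, and -3.94 and -4.16 in *hda6-10*. Here too all 4 arrays of the alleles were below the other 4. It was 2.57-fold lower in *hda6-10* (-1.36, SE 0.22, adjusted p = 0.015) and 2.08-fold lower in *hda6-9* (-1.05, SE 0.22, adjusted p = 0.035), just past the 2-fold limit. Without any 1 of the 4 arrays compared the *hda6-10* call was lost (adjusted p = 0.060 to 0.077), and the *hda6-9* call was lost without *hda6-9* replicate 2 (-0.76) or either *ros1-1* array (adjusted p = 0.10 and 0.15). With normexp background correction both differences stayed under 2-fold, at -0.94 and -0.93.

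*GSTF5* (AT1G02940) was near the floor of the array. It read -9.71 and -10.56 in C24, -10.46 and -10.23 in *ros1-1*, -7.75 and -8.82 in *hda6-9*, and -7.55 and -7.92 in *hda6-10*. The spot was well above background on both *hda6-10* arrays, on 1 of 2 *hda6-9* arrays and on no C24 or *ros1-1* array, and all 4 arrays of the alleles lay above the other 4. It was the only 1 of the 56 member probes to be tested through a single genotype, *hda6-10*, where it was highest, so its place among the calls is a description. Taken against the lowest signal well above background on each *ros1-1* array, *GSTF5* was at least 1.97-fold higher in *hda6-10* (fitted difference 2.62, adjusted p = 0.015) and at least 1.35-fold higher in *hda6-9* (fitted difference 2.07, adjusted p = 0.034). With normexp correction, which adds a constant to every spot and so weighs most on dim ones, the differences were 0.67 and 0.01 and neither was called. The *hda6-10* call was lost without any 1 of the 4 arrays compared (adjusted p = 0.054 to 0.088), and the *hda6-9* call without *hda6-9* replicate 1 (adjusted p = 0.10) or either *ros1-1* array (adjusted p = 0.14 and 0.11).

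**Figure D2:**
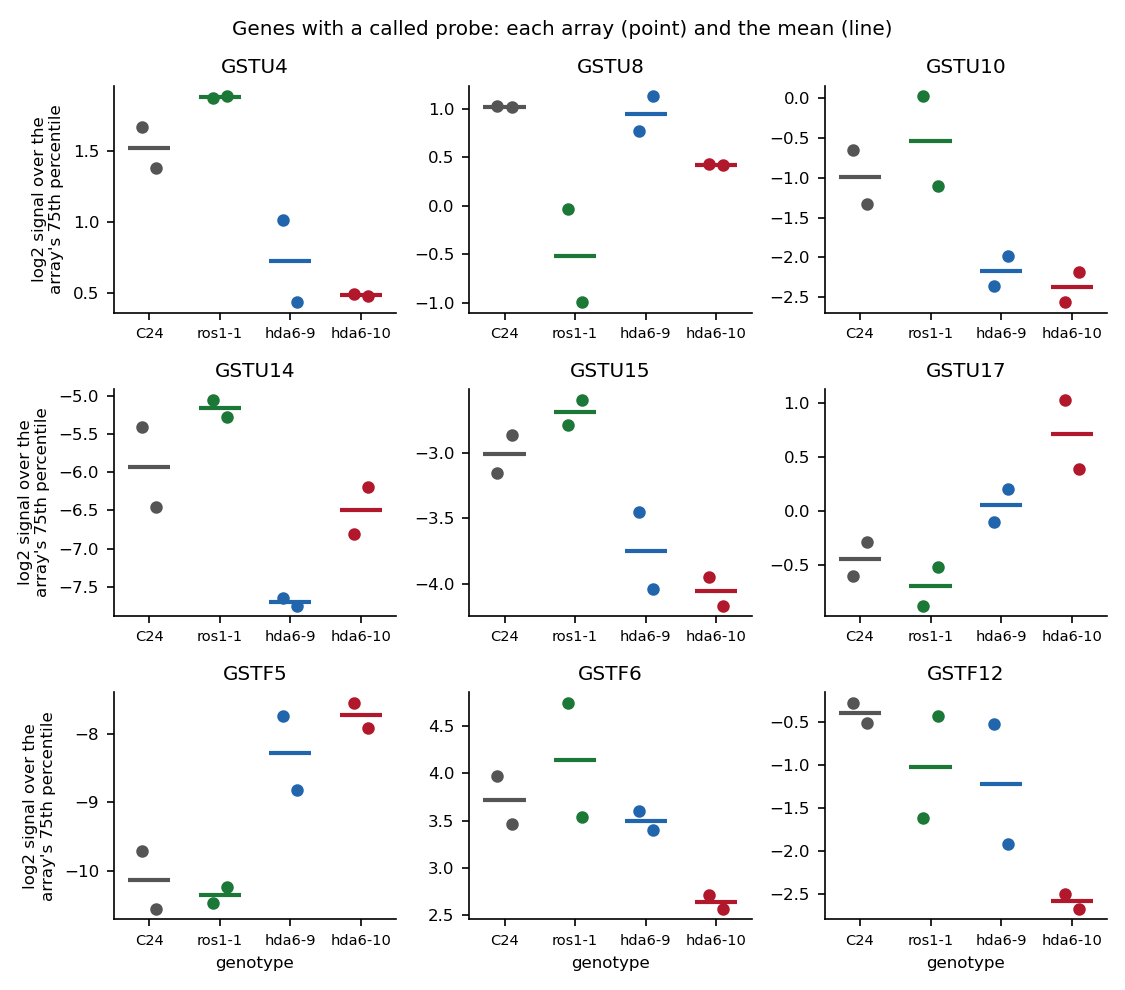
Log2 signal over the array's 75th percentile (y axis, its own scale in each panel) in the 4 genotypes for the 9 genes with a called probe, read by the brightest probe. Points are arrays, replicate 1 on the left, and lines are means; in *GSTU4*, *GSTU10* and *GSTU15* the 4 points of the alleles lie below the other 4, and in *GSTU17* and *GSTF5* above them.

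*GSTU17* (AT1G10370), also named *ERD9* for its early response to dehydration and known as a regulator of drought tolerance and light responses, was the gene that rose with the most probes. Its brightest probe read -0.60 and -0.29 in C24, -0.88 and -0.52 in *ros1-1*, -0.10 and 0.20 in *hda6-9*, and 1.03 and 0.38 in *hda6-10*. The 4 genotypes followed one another without overlap apart from C24 and *ros1-1*. The gene was 2.65-fold higher in *hda6-10* (1.41, SE 0.26, adjusted p = 0.024), a second probe gave 1.43 (adjusted p = 0.018), and the third, not called because it stayed under 2-fold, gave 0.90 (adjusted p = 0.013). In *hda6-9* the brightest probe differed by 0.75 (adjusted p = 0.12). The brightest probe's *hda6-10* call was lost without *hda6-10* replicate 1 (1.08, adjusted p = 0.082), without *ros1-1* replicate 1 (adjusted p = 0.12) and without *ros1-1* replicate 2 (adjusted p = 0.060). Its tandem neighbour *GSTU18* differed by 0.44 in *hda6-10* (adjusted p = 0.12) and by 0.19 in *hda6-9* (adjusted p = 0.42).

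*GSTU8* (AT3G09270) set *ros1-1* apart from the other genotypes. Signals were 1.02 and 1.02 in C24, -0.04 and -0.997 in *ros1-1*, 0.77 and 1.13 in *hda6-9*, and 0.43 and 0.42 in *hda6-10*, so that both *ros1-1* arrays were below all 6 others. The gene was 2.76-fold higher in *hda6-9* (1.46, SE 0.31, adjusted p = 0.036). C24 differed from *ros1-1* by as much, 1.54, with an adjusted p of 0.15, and *hda6-10* by 0.94 (adjusted p = 0.12). The *hda6-9* call was lost without *ros1-1* replicate 2 (0.98, adjusted p = 0.046) and without either *hda6-9* array (adjusted p = 0.091 and 0.15).

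*GSTU14* (AT1G27140) was lowest in *hda6-9*. It read -5.41 and -6.46 in C24, -5.05 and -5.28 in *ros1-1*, -7.64 and -7.74 in *hda6-9*, where 1 of 2 spots was well above background, and -6.81 and -6.19 in *hda6-10*. It was 5.77-fold lower in *hda6-9* (-2.53, SE 0.37, adjusted p = 0.012), and in *hda6-10* the difference was -1.33 (adjusted p = 0.077). The alleles differed by 1.20 (adjusted p = 0.13). Without any 1 of the 4 arrays compared the *hda6-9* call was lost (adjusted p = 0.057 to 0.070), and with normexp correction the difference was -0.90 (adjusted p = 0.072). *GSTU13*, next to it but for 1 gene, moved the other way, by 0.50 in *hda6-9* (adjusted p = 0.011), under 2-fold, with its other 2 probes at 0.45 and 0.53.

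*GSTU10* (AT1G74590) read -0.65 and -1.33 in C24, 0.03 and -1.10 in *ros1-1*, -2.36 and -1.99 in *hda6-9*, and -2.57 and -2.19 in *hda6-10*. The alleles did not overlap C24 or *ros1-1*. The gene was 3.57-fold lower in *hda6-10* (-1.84, SE 0.42, adjusted p = 0.046), and in *hda6-9* the difference was -1.64 (adjusted p = 0.061). The *hda6-10* call was kept by leaving out *ros1-1* replicate 2, and was lost without either *hda6-10* array (adjusted p = 0.19 and 0.11) and without *ros1-1* replicate 1 (-1.27, adjusted p = 0.14).

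*GSTF6* (AT1G02930), which conjugates glutathione to an indole intermediate on the way to the phytoalexin camalexin, was called by the dimmer of its 2 probes only. That probe read 3.02 and 2.43 in C24, 3.79 and 2.67 in *ros1-1*, 2.58 and 2.35 in *hda6-9*, and 1.71 and 1.45 in *hda6-10*. Both *hda6-10* arrays were below all 6 others. The difference from *ros1-1* was -1.65 (SE 0.39, adjusted p = 0.049), and the brightest probe gave -1.51 (SE 0.40, adjusted p = 0.068). The call of the dimmer probe was lost without either *hda6-10* array (adjusted p = 0.14 and 0.17) and without *ros1-1* replicate 1 (-1.09, adjusted p = 0.12). In *hda6-9* the brightest probe differed from *ros1-1* by -0.64 and overlapped it, and the dimmer probe differed by -0.77 with both arrays below those of *ros1-1*, and neither was called.

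*GSTF12* (AT5G17220), the *TRANSPARENT TESTA19* gene needed to bring anthocyanins and proanthocyanidins into the vacuole, gave opposite answers with its 2 probes. The brightest probe read -0.28 and -0.51 in C24, -1.61 and -0.44 in *ros1-1*, -0.53 and -1.92 in *hda6-9*, and -2.50 and -2.68 in *hda6-10*. The other read -3.10 and -3.36 in C24, -3.91 and -3.80 in *ros1-1*, -3.16 and -3.28 in *hda6-9*, and -2.53 and -2.83 in *hda6-10*. *hda6-10* was thus the lowest genotype by the brightest probe and the highest by the other, with no overlap in either case. Against *ros1-1* the differences were -1.56 (SE 0.55, adjusted p = 0.13) and 1.17 (SE 0.14, adjusted p = 0.0064). The call of the dimmer probe held without any 1 of the 4 arrays compared and was lost with slide as a block, where the difference was 1.23. No direction is therefore given for this gene. The probes gave opposite signs in *hda6-9* too, at -0.20 and 0.64, and gave 0.63 and 0.63 in C24.

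**Figure D3:**
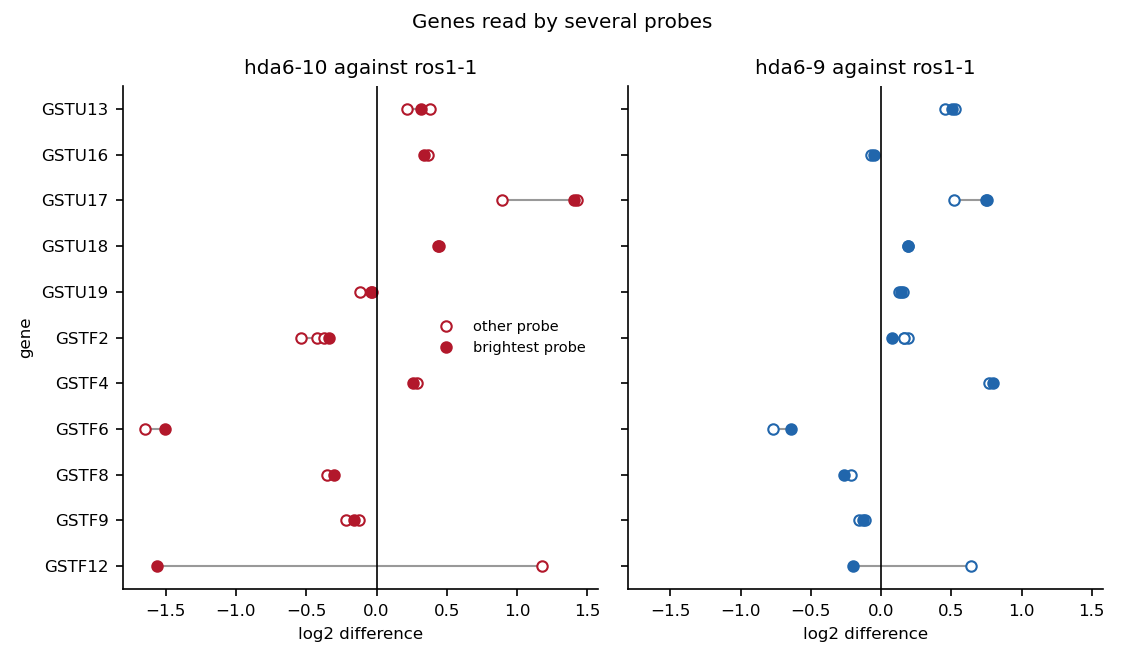
Log2 difference from *ros1-1* (x axis) of every tested probe of the 11 genes read by several probes, in *hda6-10* on the left and *hda6-9* on the right. Filled points are the brightest probes, open points the others; the probes of *GSTF12* lie on both sides of 0, those of the other 10 genes on 1 side.

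Slides and genotypes overlapped only in part, and a fit with slide as a fixed block replaced most calls. In that fit *hda6-10* against *ros1-1* is the *hda6-10* mean minus *ros1-1* replicate 1, on slide 1. The *hda6-9* difference is *hda6-9* replicate 1 minus *ros1-1* replicate 2, on slide 2. Its spread comes from the C24 and *hda6-10* pairs alone, so no p-value of this fit is given for these comparisons. In *hda6-10* against *ros1-1* the call of *GSTU4* was kept (-1.39). The calls of *GSTU10*, *GSTU15*, *GSTU17*, *GSTF5*, *GSTF6* and *GSTF12* were lost, with differences in the same direction. Called with the block only were *GSTU12* (-5.21), *GSTU22* (-1.35), the brightest probe of *GSTF6* (-2.11) and the third of *GSTU17* (1.03). All were wider than without the block, which was not particular to them. *GSTU3*, *GSTU10*, *GSTU11*, *GSTF5*, *GSTF7* and the other probes of *GSTF6* and *GSTU17* widened too, while *GSTU15* narrowed. For *GSTU12*, *GSTU22* and *GSTF6*, *ros1-1* replicate 1 lay above replicate 2, by 3.50, 0.62 and 1.22. These genes are thus set against the higher *ros1-1* array alone. In *hda6-9* against *ros1-1* the call of *GSTU8* was kept (1.77), and those of *GSTU4*, *GSTU14*, *GSTU15* and *GSTF5* were lost. The difference of *GSTU22* was -1.84 there. Over all tested probes, too, fewer were called in *hda6-10* with this block than the 1772 higher and 479 lower without it.

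The other genes with several probes were read alike. In *hda6-10* against *ros1-1*, 10 of 11 genes had all probes on the same side of 0, and in 9 of 11 the probes lay within 0.35 of each other. After *GSTF12*, whose probes were 2.74 apart, the widest gene was *GSTU17*, with 0.53. In *hda6-9* against *ros1-1* the probes of *GSTF12* were 0.84 apart and the next widest gene's 0.23.

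By brightest probe, *GSTF12* left out, the tau class had 1 of 27 genes called higher and 3 lower against *ros1-1* in each allele. The phi class had 1 of 11 higher and 0 lower in each. That phi call was *GSTF5* in both alleles, a dim probe tested through *hda6-10* alone, so the phi share is a description. Over all tested probes the shares were 5.01% higher and 1.35% lower in *hda6-10* and 4.29% and 1.37% in *hda6-9*. The median log2 difference in *hda6-10* was -0.04 for tau and -0.16 for phi, and in *hda6-9* -0.22 for tau and 0.08 for phi, beside 0.02 over all tested probes in both comparisons. Differences in *hda6-10* ran from -4.41 (*GSTU3*, not called) to 1.41 (*GSTU17*) in the tau class and from -1.51 (*GSTF7*, not called) to 2.62 (*GSTF5*) in the phi class.

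**Figure D4:**
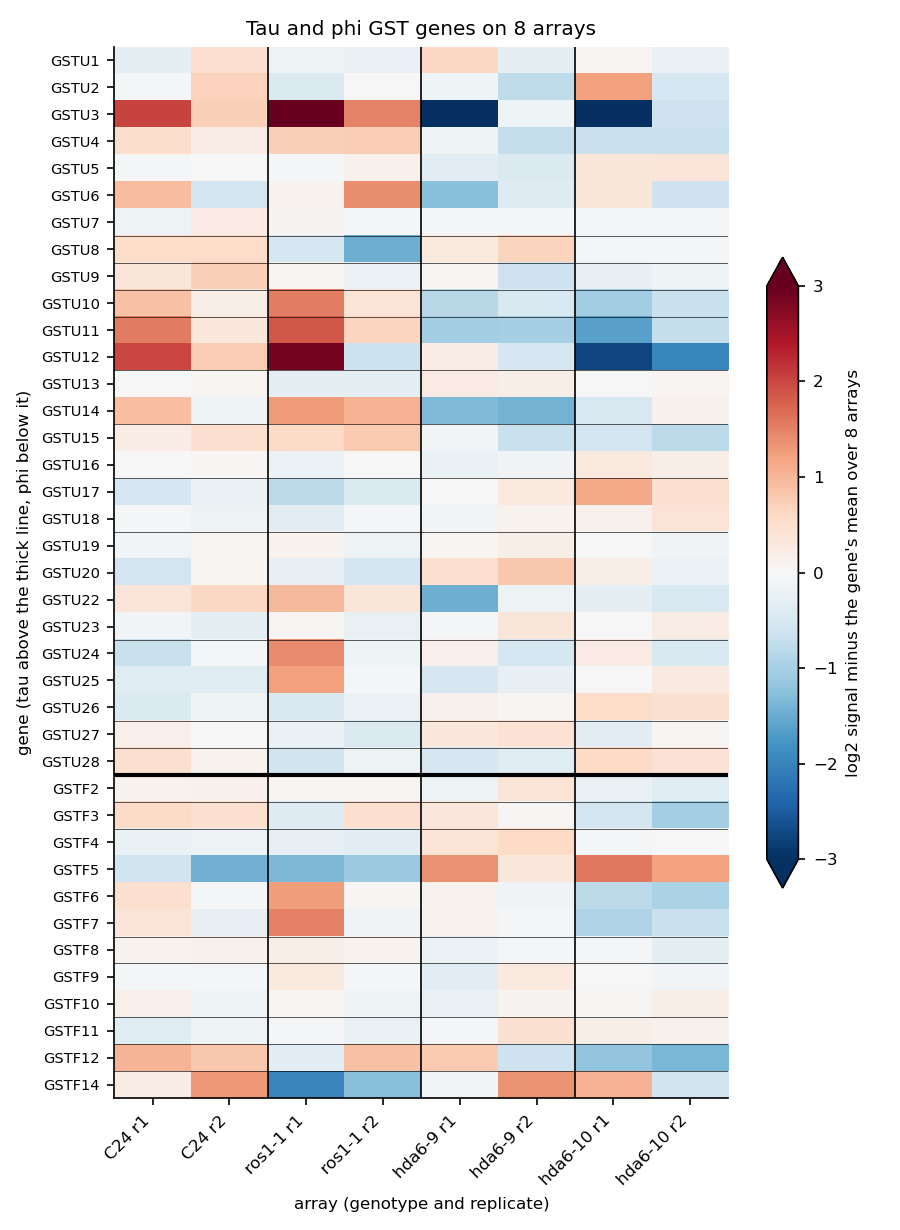
Log2 signal of the 39 tested genes (rows, brightest probe) minus the gene's own mean, on the 8 arrays (columns). Red is above and blue below the gene's mean, colours end at 3 in each direction, thin lines part the tandem clusters and the thick line parts tau from phi; *GSTU3*, *GSTU10*, *GSTU11* and *GSTU12* have their strongest red on *ros1-1* replicate 1.

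Some tandem copies lay on the same side of *ros1-1* and others on opposite sides, and differences within a cluster were not tested. *GSTU11* and *GSTU12* were both below *ros1-1* in *hda6-10*, by -2.43 and -3.46, and in *hda6-9*, by -2.28 and -1.26, with no call, and *GSTU17* and *GSTU18* were both above it. The *GSTU1* to *GSTU7* cluster on chromosome 2 holds 7 genes with at most 1 other coding gene between neighbours, and its differences in *hda6-10* spanned 4.98, from -4.41 for *GSTU3* (adjusted p = 0.11) to 0.57 for *GSTU2*. Of these 7 genes only *GSTU4* was called. *GSTU5*, which is induced by auxin, differed by 0.35 in *hda6-10* (adjusted p = 0.068) and by -0.40 in *hda6-9* (adjusted p = 0.047, under 2-fold). *GSTU7* lay within 0.08 of *ros1-1* in both alleles. *GSTU1*, *GSTU2* and *GSTU6* were not called, with differences between -1.57 and 0.57.

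The *GSTF4* to *GSTF7* cluster on chromosome 1, where the 4 genes follow each other directly, held both directions side by side. Against *ros1-1* in *hda6-10*, *GSTF4* differed by 0.26, *GSTF5* by 2.62, *GSTF6* by -1.51 and *GSTF7* by -1.51. In *hda6-9* the values were 0.80 (adjusted p = 0.0055, under 2-fold), 2.07, -0.64 and -0.67. *GSTF6* and *GSTF7*, which respond to pathogens and salicylic acid, thus lay on one side of 0 and *GSTF4* and *GSTF5* on the other, with *GSTF4* not past the 2-fold limit. *GSTU15* and *GSTU16* likewise parted, at -1.36 and 0.34 in *hda6-10*, while *GSTF9* and *GSTF10* stayed within 0.17 of *ros1-1* in both alleles.

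The *GSTU19* to *GSTU23* cluster had 4 genes tested and none called. *GSTU19*, an abundant enzyme that acts on herbicides, lay within 0.15 of *ros1-1* in both alleles. *GSTU20*, which binds the jasmonate-conjugating protein JAR1, differed by 1.07 in *hda6-9* (adjusted p = 0.053) and *GSTU22* by -1.48 (adjusted p = 0.086), so the 2 genes with the widest differences went opposite ways. In the *GSTU24* to *GSTU26* cluster, *GSTU24* and *GSTU25*, enzymes known for acting on the explosive TNT, differed by -0.77 and -0.46 in *hda6-10* and were not called. *GSTU26* differed by 0.83 there (adjusted p = 0.018), under 2-fold.

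Other members differed by more than 2-fold but missed the adjusted threshold, and the 5 genes given here were chosen after their values had been seen. *GSTU3* (AT2G29470) read -1.42 and -2.73 in C24, -0.22 and -1.94 in *ros1-1*, -6.66 and -3.56 in *hda6-9*, and -6.91 and -4.06 in *hda6-10*. All 4 arrays of the alleles were below the other 4, and replicate 1 minus replicate 2 was -3.10 in *hda6-9* and -2.85 in *hda6-10*. The differences were -4.41 (SE 1.39, adjusted p = 0.11) in *hda6-10* and -4.03 (adjusted p = 0.12) in *hda6-9*.

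*GSTU11* (AT1G69930) read -0.71 and -1.95 in C24, -0.39 and -1.62 in *ros1-1*, -3.30 and -3.26 in *hda6-9*, and -3.90 and -2.97 in *hda6-10*. Again the alleles did not overlap the other genotypes, and the differences of -2.43 and -2.28 had adjusted p = 0.052 and 0.060. Its neighbour *GSTU12* (AT1G69920) read -0.63 and -4.14 in the 2 *ros1-1* arrays and -6.25 and -5.44 in *hda6-10*, a difference of -3.46 (adjusted p = 0.12). *GSTF7* (AT1G02920) was lower in both *hda6-10* arrays, -0.88 and -0.62, than in all others, -0.20 to 1.56 (adjusted p = 0.13). *GSTF14* (AT1G49860) was lowest in *ros1-1*, at -6.70 and -5.97 against -5.31 to -3.37 elsewhere, with differences of 1.84 in *hda6-10* (adjusted p = 0.19), 2.25 in *hda6-9* (adjusted p = 0.11) and 2.38 in C24 (adjusted p = 0.31).

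Several of these genes differed between the 2 *ros1-1* arrays as much as between genotypes. *ros1-1* replicate 1 was above replicate 2 by over 1 log2 unit for 8 of 39 genes, *GSTU3*, *GSTU10*, *GSTU11*, *GSTU12*, *GSTU24*, *GSTU25*, *GSTF6* and *GSTF7*, with gaps from 1.13 to 3.50. Over all tested probes 1.3% had such a gap. In C24, 5 of 39 genes had replicate 1 higher by over 1, *GSTU3*, *GSTU11* and *GSTU12* among them with gaps of 1.24 to 1.31. Gaps over 1 in either direction were found for 10 genes in *ros1-1*, 6 in C24, 5 in *hda6-9* and 3 in *hda6-10*, against 3.09% to 3.77% of all tested probes. The median gap was 0.23 to 0.32 for the 39 genes and 0.13 to 0.16 for all tested probes.

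**Figure D5:**
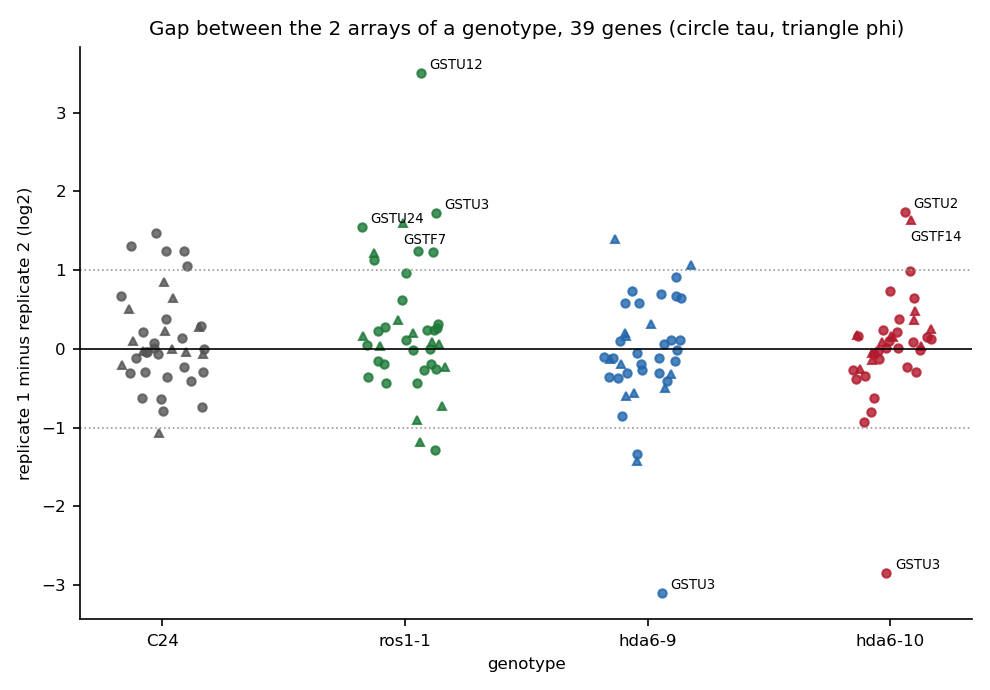
Replicate 1 minus replicate 2 (y axis, log2) for the 39 tested genes in each genotype (x axis). Circles are tau genes, triangles phi genes, dotted lines mark a gap of 1 and genes beyond 1.5 are named; *GSTU12* in *ros1-1* has a gap of 3.50.

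The alleles were then compared with each other. In *hda6-10* against *hda6-9*, 0 of 56 member probes were called in either direction by limma, beside 1.43% higher and 0.540% lower over all tested probes. At an unadjusted p under 0.05 and the same fold, 1 was higher (*GSTU14*) and 1 lower (*GSTF12*, by its brightest probe), beside 3.18% and 1.04%. A pair of genes passed the adjusted threshold at under 2-fold. *GSTU5* read 1.48 and 1.37 in *hda6-9* and 2.18 and 2.19 in *hda6-10*, a difference of 0.75 (SE 0.09, adjusted p = 0.025). *GSTF4* read -1.39 and -1.20 in *hda6-9* and -1.86 and -1.81 in *hda6-10*, a difference of -0.54 (SE 0.09, adjusted p = 0.043). The alleles never shared a slide. With slide as a block, which links them through *ros1-1*, the differences were 0.89 and -0.54. The spread of that fit comes from the C24 and *hda6-10* pairs alone, so no p-value or count of it is given here.

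Most phi genes lay lower in *hda6-10* than in *hda6-9*. *GSTF12* was left out, since its probes gave -1.36 and 0.54 here. The difference was below 0 in 9 of 11 phi genes with a median of -0.41, and in 14 of 27 tau genes with a median of -0.02. Over all tested probes the median was -0.02 and 47.1% lay above 0. Some of the 9 hardly differed, *GSTF8* and *GSTF9* by -0.04 each, and *GSTF11* with means of -1.36 in *hda6-10* and -1.30 in *hda6-9*. In 5 of 11 phi genes both *hda6-10* arrays were below both *hda6-9* arrays, *GSTF2*, *GSTF3*, *GSTF4*, *GSTF6* and *GSTF7*, where 29.5% of all tested probes were so. None of them passed the adjusted threshold but *GSTF4*, so the order within this class is a description.

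In C24 against *ros1-1*, 0 of 56 member probes were called, beside 0.342% higher and 0.0932% lower over all tested probes. At an unadjusted p under 0.05 and the same fold 2 were higher, *GSTU8* and *GSTF14*, and 0 lower, beside 1.74% and 0.737%. The differences of the 39 genes ran from -0.997 to 2.38 with a median of 0.03.

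Setting the 4 arrays of the alleles beside the 4 arrays of C24 and *ros1-1*, 11 of 39 genes did not overlap. Lower in all 4 were *GSTU3*, *GSTU4*, *GSTU10*, *GSTU11*, *GSTU15*, *GSTU22* and *GSTF8*, 17.9% of the genes, where 7.85% of all tested probes were so. Higher in all 4 were *GSTU17*, *GSTU26*, *GSTF4* and *GSTF5*, 10.3% of the genes against 12.2%. The gap between the nearest arrays was widest for *GSTU11*, at 1.02, and narrowest for *GSTF4*, at 0.08.

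Looser rules gave larger counts. In *hda6-10* against *ros1-1*, the p without adjustment, with the same limits, gave 5 of 56 member probes higher and 11 lower, beside 6.06% and 2.26% of all tested probes. By fold alone 5 were higher and 12 lower, beside 6.50% and 3.03%. In *hda6-9* against *ros1-1* the unadjusted rule gave 4 higher and 7 lower (5.04% and 2.89%) and fold alone 4 and 9 (5.37% and 3.95%). On the lower side the member shares were thus 12.5% to 21.4%, above the background under both rules and in both alleles. On the higher side they were 7.14% to 8.93%, also above it under both rules and in both alleles. The higher side holds *GSTF5*, tested through *hda6-10* alone, in both alleles. In *hda6-10* the lower side holds *GSTU3*, *GSTU10*, *GSTU11*, *GSTU12*, *GSTF6* and *GSTF7*, for which *ros1-1* replicate 1 was far above replicate 2. The lower side of *hda6-9* holds *GSTU3*, *GSTU10* and *GSTU11* of these under both rules, and *GSTU12* by fold alone. By fold alone the alleles differed in 1 higher and 2 lower (4.20% and 1.50%), and C24 and *ros1-1* in 2 higher and 0 lower (2.46% and 1.40%).

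Arrays that did not overlap were far more frequent than calls. In *hda6-10* against *ros1-1*, 21 member probes lay above *ros1-1* on both arrays and 20 below it, 37.5% and 35.7%, beside 31.1% above and 24.4% below over all tested probes. In *hda6-9* these were 16 and 14 (34.8% and 27.0%), in *hda6-10* against *hda6-9* 13 and 22 (25.8% and 29.5%), and in C24 against *ros1-1* 15 and 4 (24.5% and 20.3%). The member shares were 28.6% and 25%, 23.2% and 39.3%, and 26.8% and 7.14% in these comparisons, so they lay on both sides of the background.

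A further group of member probes passed the adjusted threshold with changes under 2-fold, which the call leaves out. In *hda6-10* against *ros1-1* these were 5 probes of 4 genes, all higher, and in *hda6-9* 7 probes of 5 genes, 6 higher and 1 lower. Beside those given above they were *GSTU28* at 0.88 in *hda6-10* (adjusted p = 0.040), *GSTU13* at 0.32 in *hda6-10* (adjusted p = 0.044) and *GSTU27* at 0.69 in *hda6-9* (adjusted p = 0.039). Such probes were 5.67% and 6.54% of all tested probes.

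The other genes around glutathione were mostly not called. Of 11 tested genes of other transferase classes, 1 was called higher in each allele and 0 lower, and this was *GSTZ2* of the zeta class, whose relative *GSTZ1* acts in tyrosine breakdown. *GSTZ2* read -5.86 and -5.91 in C24, -5.66 and -5.79 in *ros1-1*, -4.60 and -4.51 in *hda6-9*, and -4.27 and -4.74 in *hda6-10*, a clear step between the first 2 genotypes and the alleles. It was 2.33-fold higher in *hda6-10* (adjusted p = 0.0083) and 2.24-fold higher in *hda6-9* (adjusted p = 0.010).

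Of 11 genes for making and reducing glutathione and for handling its conjugates, 1 was called higher in each allele and 0 lower. It was *GGT2*, a gamma-glutamyl transpeptidase that breaks glutathione down outside the cell. *GGT2* was at least 3.80-fold higher in *hda6-10* and at least 4.13-fold higher in *hda6-9*, and was not well above background in *ros1-1*. It was tested through the alleles alone, where it was highest, so its place among the calls is a description. Of 13 TGA transcription factors and genes that act with them in detoxification, 0 were called in *hda6-10* and 1 in *hda6-9*, the oxophytodienoate reductase gene *OPR2*, 2.01-fold higher (adjusted p = 0.018). The list medians lay between -0.10 and -0.04 in both alleles for these 2 lists.

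Pathways that use a GST were read beside the GST. Of 7 late anthocyanin genes, which work upstream of *GSTF12*, 1 was called higher in each allele. In *hda6-10* it was the regulator *TT8*, at least 3.25-fold higher. *TT8* was tested through *hda6-10* alone, where it was highest, so its place among the calls is a description. In *hda6-9* it was *LDOX*, which makes anthocyanidins, 4.13-fold higher (limma, adjusted p = 0.029). Of 4 camalexin genes, 1 was called lower in *hda6-10*, *CYP71A12*, which makes indole-3-acetonitrile, 10.8-fold lower (-3.43, SE 0.66, adjusted p = 0.027), and 0 in *hda6-9*. The camalexin median was -3.14 in *hda6-10* and -1.95 in *hda6-9*, but not all of the genes moved. *GGP1* had means of 3.43 in *ros1-1*, 3.43 in *hda6-9* and 3.20 in *hda6-10*. *CYP71A13* read -5.06 and -1.78 in *hda6-10*. The enzyme gene *PAD3* read 2.63 and 0.40 in the *ros1-1* arrays, so that the gap between those arrays recurs here. Of 13 aliphatic glucosinolate genes, the pathway *GSTF11* and *GSTU20* are linked to, 1 was called higher in each allele, the regulator *MYB29*, 2.61-fold in *hda6-10* and 2.63-fold in *hda6-9* (adjusted p = 0.011 and 0.012). *GSTF11* differed by 0.26 and 0.32 and was not called.

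Markers of other tissue and of the cold treatment moved with some of these comparisons. Of 7 tested root markers, 0 were called in *hda6-9* against *ros1-1*, but 6 lay below 0 with a median of -2.08, and in *hda6-10* 6 lay below 0 with a median of -0.44. The summed root marker signal was 1.34 and 1.34 in *ros1-1*, 1.07 and 1.25 in *hda6-9*, 1.26 and 1.25 in *hda6-10*, and 1.3 and 1.16 in C24, on the log2 scale. That sum is set mostly by the brightest markers, *SCR* and *SHR*, which changed little. The mean of the 8 markers' log2 signals was -3.53 and -3.68 in *ros1-1* and -5.43 and -4.10 in *hda6-9*. It was -3.57 and -4.16 in *hda6-10* and -3.44 and -4.25 in C24. The root marker *NRT2.1* was not tested and was well above background on no *ros1-1* array. Of 4 cold markers, *COR15A* and *RD29A* were called higher in *hda6-10*, 2.72-fold and 53.2-fold (adjusted p = 0.033 and 0.0099), and 0 in *hda6-9*. The RD29A promoter also drives a transgene present in all 4 genotypes. By brightest probe, *COR15A* means were -2.93 in C24, -2.42 in *ros1-1*, -1.29 in *hda6-9* and -0.98 in *hda6-10*. Those of *RD29A* were -3.21, -6.09, -4.55 and -0.36, so its 53.2-fold starts from a low *ros1-1* signal. The dimmer *RD29A* probe was well above background on no *ros1-1* or *hda6-9* array. All 8 arrays were of chilled seedlings, so the response of these markers to cold was not tested. The part of the root and cold markers in the GST differences was not tested.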

How the data were processed

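The authors read each one-colour array with Agilent Feature Extraction 10.7.1.1, which subtracts background, detrends the slide and marks outlier spots. They deposited spot intensity on a linear scale, with no normalization between arrays, and a combined table that equals the background-subtracted signal of the scanner output in all but 2 of 350424 values. The paper's methods name a shift to the 75th percentile and a change above 2-fold. The depth of an array is its signal over background, and the number of arrays limits the precision.

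From the processed signal, outlier spots (25 to 49 per array) were left out, log2 was taken, the 75th percentile of each array's non-control probes was subtracted and spots of a probe were averaged. A probe was tested where some genotype had it well above background on each of its 2 arrays, 35391 of 43603, with limma 3.58.1 in R 4.3.3 (lmFit and eBayes, a mean per genotype, 8 arrays). Members were joined by RefSeq accession. Names and gene order came from the TAIR10.1 annotation, whose build is not that of the array design, so no position is printed, and sequences were not used here.

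The members and gene lists were chosen with earlier results of these data known. Full values are given for members with a called probe, read by the brightest probe, and for list genes called, at most 3 per direction; other members named singly were picked after their values were seen. A bound on a fold change is the brighter group's mean against the higher of the lowest signal well above background and the dim probe's own, averaged over arrays. The test was tried on simulated data first. Alternatives were other scalings and background corrections, filters, thresholds, slide and replicate blocks, and each array left out in turn. The methods name more biological replicates per sample than the 2 arrays per genotype analysed here, a difference that was not resolved. p-values measure the spread between the 2 arrays of each genotype.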

Additional observations from a re-analysis of the deposited data

Results flagged for a closer look

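The 2 *hda6* alleles, compared directly in limma's fit, differed past the adjusted threshold for 2 genes whose effects against *ros1-1* were not alike. *GSTU5* was 0.75 higher on the log2 scale in *hda6-10* than in *hda6-9* (adjusted p = 0.025), with 0.35 in *hda6-10* and -0.40 in *hda6-9* against *ros1-1*, on opposite sides of 0. *GSTF4*, by its brightest probe, was lower in *hda6-10* by -0.54 (adjusted p = 0.043), with 0.26 and 0.80 against *ros1-1*. Both differences were under 2-fold. With slide as a block they were 0.89 and -0.54, in a fit whose spread holds no *hda6-9* or *ros1-1* pair, so no p-value of it is given. The alleles share no slide, so that allele and slide are linked only through *ros1-1*. Groups of 2 arrays are too small for a search for single arrays that stand apart.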

How the results depend on the processing

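The 31 member results followed through the alternatives, those past 2-fold at an unadjusted p, kept their direction in all that were run. Counts of called member probes, 4 higher and 4 lower in *hda6-10* and 2 higher and 3 lower in *hda6-9* against *ros1-1*, moved as follows, with the count over all tested probes in brackets (at first 1772, 479, 1517 and 485). With normexp correction, *hda6-9* had 1 higher and 1 lower (656 and 181). With the combined table *hda6-10* had 2 lower (449). With no filter on dim probes *hda6-10* had 2 lower (419) and *hda6-9* 1 higher (1544). With genes in place of probes *hda6-10* had 2 higher (1079). With only the arrays of the genotypes compared, *hda6-10* had 2 higher and 2 lower (1517 and 395) and *hda6-9* 0 and 1 (1448 and 423). With slide as a fixed block most calls were replaced. Each comparison with *ros1-1* then rests on 1 *ros1-1* array, so no counts are listed for it. Within 1 slide, by fold alone, *hda6-10* had 7 and 13 (2524 and 1177) and *hda6-9* 4 and 6 (1902 and 1613). With no minimum fold, *hda6-10* had 9 higher (3034), *hda6-9* 8 higher (3081) and the alleles differed in 1 higher and 1 lower (851 and 493). At an unadjusted p, *hda6-10* had 11 lower (799), *hda6-9* 4 and 7 (1783 and 1023), the alleles 1 and 1 (1124 and 368), and C24 2 higher (615). By fold alone, *hda6-10* had 12 lower (1072), *hda6-9* 4 and 9 (1901 and 1399), the alleles 1 and 2 (1487 and 531), and C24 2 higher (869). Leaving out 1 array gave 1 to 3 higher and 0 to 6 lower in *hda6-10* and 0 to 1 higher and 0 to 2 lower in *hda6-9*. The cause was not tested. Same-numbered arrays did not deviate together (correlations from -0.38 to 0.06), and with a replicate block *hda6-9* had 1 higher (1356), while the calls between the alleles over all tested probes fell to 18 and 8. Slide could not be a block for C24. With 2 arrays per genotype, calls near the threshold are not firm, and dim probes such as *GSTF5* and *GSTU14* carry least signal over background.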

Other observations

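*GSTF13*, the phi gene that was not tested, read -8.46 and -9.90 in C24, -9.38 and -4.75 in *ros1-1*, -10.01 and -7.29 in *hda6-9*, and -10.33 and -8.75 in *hda6-10*. Its signal in *ros1-1* replicate 2 was above that of every other array.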
